A study of Homo sapiens with 49 samples.

Results

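Genes of the epithelial cell junctions were followed in Ishikawa cells, a line from a human endometrial adenocarcinoma, during exposure to ethinyl estradiol (EE), an orally active synthetic estrogen. The set was a fixed list of 38 gene symbols, chosen with earlier results of these data known. It held 16 tight junction, 7 adherens junction, 10 desmosome and 2 polarity complex genes, and 3 of epithelial adhesion and splicing. Each gene was read by its brightest probe set on average across the 49 arrays. A probe set assigned to 1 gene only was found for 36 of the 38 (OCLN and F11R are not analysed here), and 33 of these exceeded a log2 level of 4 on at least 6 arrays and were tested among 11075 genes. CLDN2, CLDN10 and EVPL lay under that floor.

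EE was given for 72 h at 7 concentrations: 0.1, 0.3, 1, 3, 10, 100 and 1000 pM. The 0.3 pM group had 7 arrays and each other concentration had 6, against 6 arrays of cells given the ethanol vehicle alone, at 0.1% by volume. All groups shared the medium with 5% CSS, as the labels write the serum supplement, and the daily renewal of part of the treatment medium. The model was 1 carcinoma line in culture. No label states that replicates came from separate cultures, and a p-value here therefore reflects the spread among these samples alone, which may be technical.

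Tight junctions seal the space between neighbouring epithelial cells: claudins form the strands, and ZO proteins, cingulin and cingulin-like 1 tie them to the cytoskeleton. Adherens junctions join cells through cadherins, which hold actin through catenins, and desmosomes join the keratin filaments of neighbouring cells through desmosomal cadherins, plakoglobin, plakophilins and plakins. In the uterine lining these contacts keep the epithelium polarised and closed, and their remodelling accompanies the change to a receptive surface.

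The promoters of 4 junction genes are shown because these were the ones whose 1000 pM arrays did not overlap the vehicle arrays, 3 lower and 1 higher, as held for 3.21% of all genes (1.65% lower, 1.56% higher). Each run holds the 250 bases before the most upstream listed start, read 5′ to 3′ on the gene's strand from RefSeq on GRCh38.p14. Capitals mark the GC box GGGCGG on either strand, and where capitals run on, boxes overlap. CGNL1 lies on the plus strand at chr15:57376255-57376504, CLDN1 on the minus strand at chr3:190322447-190322696, JUP on the minus strand at chr17:41786712-41786961 and PKP4 on the plus strand at chr2:158456702-158456951.
CGNL1: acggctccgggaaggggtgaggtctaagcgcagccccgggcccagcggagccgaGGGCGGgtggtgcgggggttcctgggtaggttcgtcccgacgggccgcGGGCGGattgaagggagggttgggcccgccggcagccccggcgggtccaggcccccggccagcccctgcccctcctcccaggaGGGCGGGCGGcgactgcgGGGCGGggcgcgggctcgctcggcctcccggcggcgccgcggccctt
CLDN1: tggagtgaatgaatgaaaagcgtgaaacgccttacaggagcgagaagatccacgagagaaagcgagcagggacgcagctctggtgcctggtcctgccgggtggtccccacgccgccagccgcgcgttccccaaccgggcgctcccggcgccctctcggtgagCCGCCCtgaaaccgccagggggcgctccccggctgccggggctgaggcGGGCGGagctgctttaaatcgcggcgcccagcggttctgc
JUP: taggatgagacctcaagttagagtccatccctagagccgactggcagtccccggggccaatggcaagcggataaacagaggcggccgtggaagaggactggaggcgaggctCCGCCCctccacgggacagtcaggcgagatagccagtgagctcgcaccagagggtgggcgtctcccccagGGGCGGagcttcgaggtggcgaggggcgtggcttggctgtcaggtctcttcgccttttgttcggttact
PKP4: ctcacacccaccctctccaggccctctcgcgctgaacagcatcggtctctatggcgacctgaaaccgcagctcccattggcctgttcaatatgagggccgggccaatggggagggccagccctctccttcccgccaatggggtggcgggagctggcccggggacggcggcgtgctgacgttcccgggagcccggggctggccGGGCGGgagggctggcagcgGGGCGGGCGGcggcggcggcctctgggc

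All 4 windows were rich in G and C, from 63.6% in JUP to 80.4% in CGNL1. CGNL1 held 5 GC boxes, PKP4 held 3, and CLDN1 and JUP held 2 each. RefSeq windows were matched for 23 of the 38 junction genes, among them CGN and the 4 genes above of those called at 1000 pM. A GC box stood in 18 of the 23, against 42.6% of 35116 promoter windows of that length. The 23 genes were read at their most upstream listed start, while the 35116 windows include every listed start. The counts and shares for all motifs here are therefore not on equal terms. The full estrogen response element (GGTCA, 3 free bases, TGACC) was in 0 of the 23 and in 0.0399% of all windows, and its half-site GGTCA was in 8 of the 23 and in 32.6% of all. The AP-1 motif TGANTCA was in 2 of the 23 (6.57% of all) and CACCTG, the E-box read by SNAI and ZEB factors, in 5 of the 23 (17.5% of all). Both strands were searched, and a half-site can lie inside a full element. None of these other 4 motifs was in the 4 windows shown, which says only that these letters are not in these windows.

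On the arrays as a whole, the median log2 level was 2.95 to 3.05 and 38.2% to 39.6% of probe sets exceeded the floor. Of genes known to respond to estrogen, the progesterone receptor gene PGR changed by 5.13 and GREB1 by 2.63 in log2 at 1000 pM, while the estrogen receptor gene ESR1 differed by 0.04. Apart stood 4 arrays: number 5 of vehicle, number 2 of 0.3 pM, number 6 of 3 pM and number 6 of 1000 pM. In them the 3′ probe set of beta-actin exceeded the 5′ one by 2.67 to 4.62 in log2, against 0.80 to 2.06 in the other 45. These 4 arrays also lay farther from their group means (SD over genes 0.286 to 0.561, against 0.104 to 0.206). Values without the 4 arrays are given beside many of the results below, though not beside all.

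At 1000 pM the junction genes did not move as 1 block: 7 fell, 1 rose and 25 did not pass. In such bulk RNA, fewer cells of a kind and less RNA per cell cannot be told apart. The 7 that fell were CGNL1, CLDN1 and CGN of the tight junction, the cadherin CDH3, the desmosomal JUP and PPL, and the splicing regulator ESRP2. The 1 that rose was PKP4, of the plakophilin-related armadillo proteins. Calls are limma p-values adjusted over all 11075 genes, with a threshold of 0.05. The 8 calls were 24.2% of the junction genes tested, and 7.21% of all genes tested were called in this comparison (4.33% lower, 2.88% higher). As the members were chosen with earlier results of these data known, the difference between these shares is no test of the set. The median log2 change was −0.06 over the 33 junction genes and −0.01 over all genes. Without the 4 arrays 8 junction genes fell and 1 rose, with 8.81% of all genes called (5.57% lower, 3.24% higher).

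**Figure D1:**
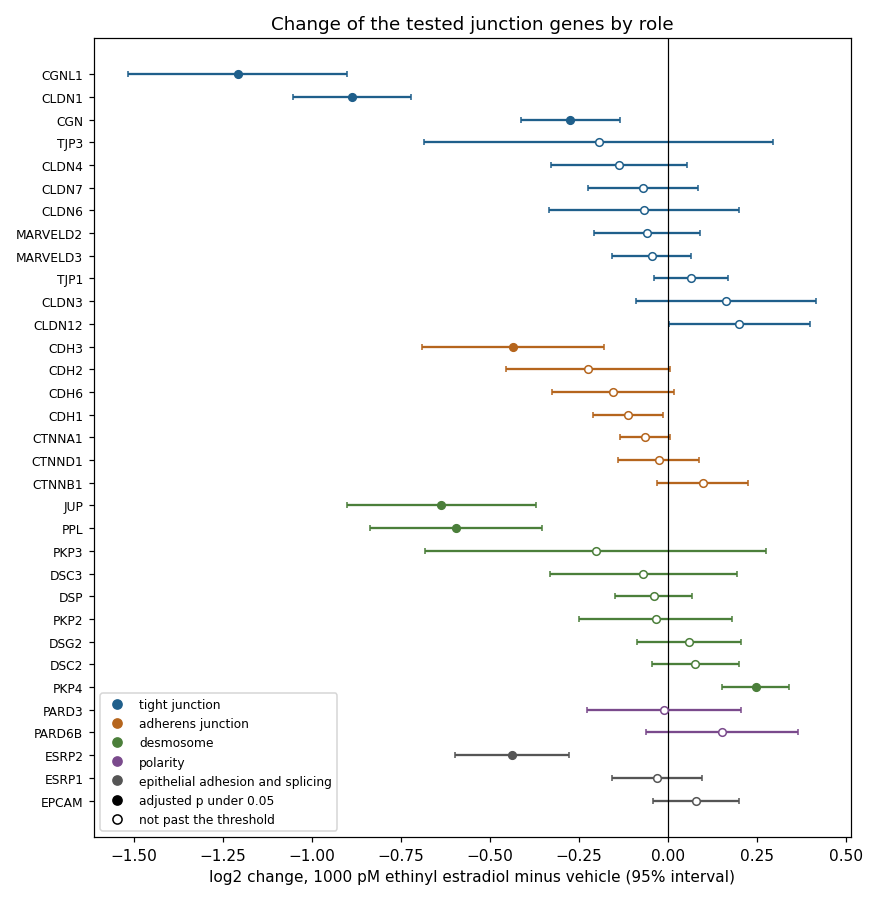
Log2 change (horizontal axis, 1000 pM EE minus vehicle) of the 33 tested junction genes, grouped by role from top to bottom, with 95% intervals. Filled points are the 8 genes with an adjusted p under 0.05. CGNL1 and CLDN1 lie farthest left at −1.21 and −0.89, and PKP4 is the filled point right of 0.

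CGNL1 had the largest change of the junction genes at 1000 pM. It encodes cingulin-like 1, also called paracingulin, a scaffold that links tight and adherens junctions to actin. Its log2 level was 3.55, 3.93 and 4.26 (lowest, median and highest of 6 arrays) at 1000 pM, against 4.66, 5.12 and 5.48 in vehicle. All 1000 pM arrays lay below all vehicle arrays. The change was −1.21 ± 0.15 (SE) in log2, 2.31-fold lower (limma adjusted p = 5.18e-08). Only 2 of the 6 arrays at 1000 pM exceeded the floor of 4, against 6 of 6 in vehicle, so the size of the fall is uncertain. Without the 4 arrays the change was −1.15 ± 0.15. A further CGNL1 probe set lay under the floor in both groups, at 3.07 at 1000 pM and 3.27 in vehicle.

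CLDN1, the claudin that is a major barrier-forming strand protein of epithelia, fell 1.85-fold at 1000 pM (log2 change −0.89 ± 0.08 SE, limma adjusted p = 6.72e-12). Its levels were 8.50, 8.88 and 8.96 (lowest, median and highest) at 1000 pM, against 9.12, 9.80 and 9.89 in vehicle. The groups did not overlap, and the lowest vehicle level belonged to replicate 5, 1 of the 4 arrays apart. Without the 4 arrays the change was −0.94 ± 0.05. The other CLDN1 probe set gave −0.88 on its own (adjusted p = 0.00114 over all probe sets, limma), with means of 5.04 at 1000 pM and 5.92 in vehicle.

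CGN encodes cingulin, the paralog of CGNL1 and a cytoskeletal adaptor of the tight junction. It had levels of 6.14, 6.36 and 6.56 at 1000 pM, against 6.50, 6.61 and 6.82 in vehicle, and the groups overlapped. The change was −0.27 ± 0.07 (SE, limma adjusted p = 0.00671). Its other probe set did not show that fall: it gave 0.14 (limma adjusted p = 0.590 over all probe sets), with means of 5.40 at 1000 pM and 5.26 in vehicle. With the mean of the probe sets in place of the brighter one, CGN was not called (limma adjusted p = 0.688).

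The fall of CGNL1 was larger than that of CGN. The level of CGNL1 minus that of CGN averaged −2.44 ± 0.26 at 1000 pM and −1.51 ± 0.23 in vehicle (SD, n = 6 each), on the log2 scale of 2 different probe sets whose offset has no meaning. The difference of −0.93 gave an exact two-sided permutation p = 0.00216, the smallest that 6 arrays against 6 allow, and 0.00433 adjusted over the 2 gene pairs compared. With arrays paired by replicate number the adjusted p was 0.0625 (exact sign-flip test), and 6 pairs allow only a coarse range of p-values.

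Other tight junction genes did not pass at 1000 pM. Among the claudins CLDN3 differed by 0.16 (95% interval −0.09 to 0.42), CLDN4 by −0.14 (−0.33 to 0.05), CLDN6 by −0.07 (−0.34 to 0.20), CLDN7 by −0.07 (−0.22 to 0.09) and CLDN12 by 0.20 (0.00 to 0.40). The level of CLDN6 straddled the floor, with 3 of 6 arrays above it at 1000 pM and 2 of 6 in vehicle. TJP1, the scaffold ZO-1, differed by 0.06 (−0.04 to 0.17) and TJP3, ZO-3, by −0.19 (−0.69 to 0.30). The interval of TJP3 was wide: its 1000 pM arrays ran from 6.06 to 7.47 and its vehicle arrays from 6.06 to 7.94. MARVELD2, tricellulin, which seals the points where several cells meet, differed by −0.06 (−0.21 to 0.09) and MARVELD3 by −0.05 (−0.16 to 0.07). CLDN2, which forms a cation pore in leaky epithelia, averaged 2.59 ± 0.16 at 1000 pM and 2.69 ± 0.23 in vehicle. CLDN10 averaged 2.38 ± 0.04 at 1000 pM and 2.15 ± 0.17 in vehicle (SD, n = 6 each), and neither gene exceeded the floor on any array.

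Of the 7 adherens junction genes CDH3 was called at 1000 pM. CDH3 encodes P-cadherin. Its levels were 7.62, 7.82 and 8.29 (lowest, median and highest) at 1000 pM, against 7.87, 8.22 and 8.80 in vehicle, and the groups overlapped. Both highest arrays, 1000 pM replicate 6 and vehicle replicate 5, were among the 4 apart. The change was −0.44 ± 0.13 (SE, limma adjusted p = 0.0230), and −0.42 ± 0.11 without the 4 arrays (limma adjusted p = 0.00691). Leaving out vehicle replicate 1 or 5, or 1000 pM replicate 3 or 5, ended the call (limma adjusted p up to 0.102).

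CDH1, E-cadherin, the main cadherin of epithelial cells, stayed close to its vehicle level. It had 10.04, 10.21 and 10.27 at 1000 pM, against 10.06, 10.32 and 10.46 in vehicle. The change of −0.11 ± 0.05 (SE) did not pass with all arrays (limma adjusted p = 0.186). Without the 4 arrays it was −0.13 ± 0.04 and passed (limma adjusted p = 0.0141). CDH2, N-cadherin, was at 7.59, 7.78 and 7.94 at 1000 pM, against 7.52, 7.91 and 8.78 in vehicle, and its change of −0.22 ± 0.11 did not pass (limma adjusted p = 0.288). The change of CDH1 minus that of CDH2 was 0.11 (exact two-sided permutation p = 0.784, likewise 0.784 adjusted over the 2 pairs). It was −0.03 without the 4 arrays and −0.10 without vehicle replicate 5, so no shift between these cadherins was detectable in these arrays.

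The catenins, which bind the cadherin tails or link them to actin, differed little at 1000 pM. CTNNA1, alpha-catenin, differed by −0.06 (95% interval −0.13 to 0.01), CTNNB1, beta-catenin, by 0.10 (−0.03 to 0.23) and CTNND1, p120-catenin, by −0.03 (−0.14 to 0.09). The kidney-type cadherin CDH6 differed by −0.16 (−0.33 to 0.02).

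Among 9 desmosomal genes tested, JUP and PPL fell and PKP4 rose. JUP is plakoglobin, an armadillo protein that binds desmosomal cadherins and classical cadherins alike. It was at 6.68, 6.86 and 7.29 (lowest, median and highest) at 1000 pM, against 7.33, 7.38 and 8.31 in vehicle, with no overlap. The highest arrays of both groups were again 1000 pM replicate 6 and vehicle replicate 5. JUP fell 1.55-fold (log2 change −0.64 ± 0.13 SE, limma adjusted p = 5.98e-04), and without the 4 arrays the change was −0.56 ± 0.08.

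PPL encodes periplakin, a plakin that ties keratin filaments to the cell border. Its levels were 5.14, 5.34 and 5.71 at 1000 pM, against 5.55, 5.92 and 6.43 in vehicle, and the groups overlapped. The change was −0.60 ± 0.12 (SE, limma adjusted p = 4.60e-04), and −0.57 ± 0.10 without the 4 arrays. EVPL, envoplakin, the partner of periplakin in the cornified envelope, averaged 3.50 ± 0.22 at 1000 pM and 3.81 ± 0.52 in vehicle, and 0 of 6 arrays at 1000 pM and 1 of 6 in vehicle exceeded the floor.

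PKP4, also called p0071, an armadillo protein found at adherens junctions and desmosomes, moved the other way. It was at 9.04, 9.15 and 9.18 at 1000 pM, against 8.76, 8.89 and 8.96 in vehicle. All 1000 pM arrays lay above all vehicle arrays. The change was 0.25 ± 0.05 (SE), 1.19-fold (limma adjusted p = 1.75e-04), and 0.24 ± 0.05 without the 4 arrays. Its 3 other probe sets above the floor were also higher at 1000 pM, by 0.40, 0.35 and 0.63, but did not pass on their own (limma adjusted p = 0.0606, 0.156 and 0.0645).

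**Figure D2:**
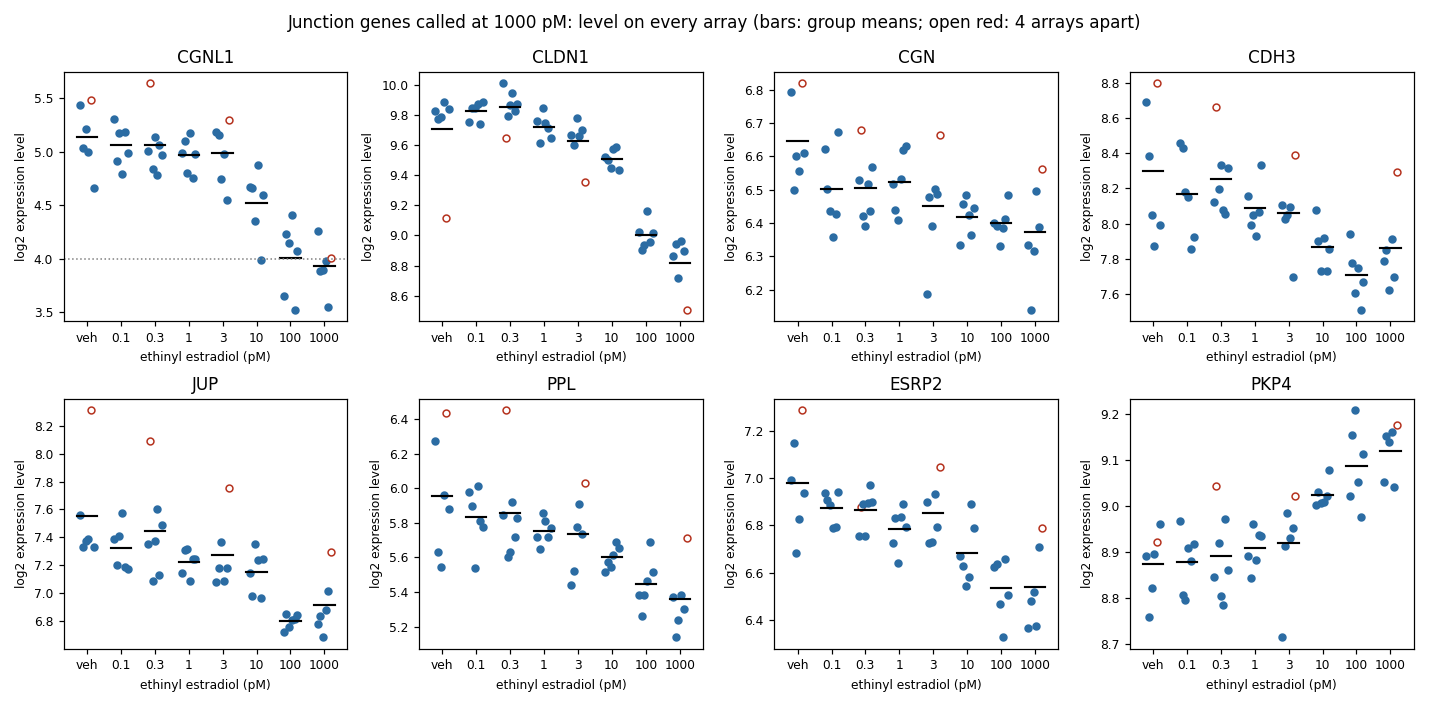
Log2 level on every array (vertical axes) for the 8 junction genes called at 1000 pM, by EE concentration in pM with vehicle at the left. Bars are group means, open red circles the 4 arrays with a high actin 3′ minus 5′ difference, and the dotted line in the CGNL1 panel the floor of 4. CGNL1 lies under all vehicle arrays at 100 and 1000 pM and CLDN1 at 1000 pM, and PKP4 is the panel that climbs.

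The remaining desmosomal genes did not pass. DSP, desmoplakin, the obligate linker to keratin, differed by −0.04 (95% interval −0.15 to 0.07), and the desmosomal cadherins DSG2, DSC2 and DSC3 by 0.06 (−0.09 to 0.20), 0.08 (−0.05 to 0.20) and −0.07 (−0.33 to 0.19). PKP2 differed by −0.04 (−0.25 to 0.18) and PKP3 by −0.20 (−0.68 to 0.28). Like TJP3, PKP3 spread widely, from 6.73 to 7.94 at 1000 pM and from 6.71 to 8.70 in vehicle. Of the 25 junction genes not called at 1000 pM, 23 had 95% intervals within a 1.5-fold change either way, the exceptions being TJP3 and PKP3. The changes of the 25 ran from −0.22 in CDH2 to 0.20 in CLDN12.

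Both polarity genes, which help to place the tight junction at the apical border, were not called. PARD3 differed by −0.01 (95% interval −0.23 to 0.21) and PARD6B by 0.15 (−0.06 to 0.37) at 1000 pM.

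ESRP2 and ESRP1 encode RNA-binding proteins that drive the epithelial pattern of splicing. ESRP2 was at 6.36, 6.50 and 6.79 at 1000 pM, against 6.68, 6.96 and 7.29 in vehicle, and the groups overlapped. It fell by 0.44 ± 0.08 (SE) on the log2 scale (limma adjusted p = 8.32e-05), and the change was −0.43 without the 4 arrays. A second ESRP2 probe set fell by 0.36 (limma adjusted p = 0.00587 over all probe sets), with means of 6.29 at 1000 pM and 6.65 in vehicle. ESRP1 differed by −0.03 (95% interval −0.16 to 0.10). EPCAM, the epithelial cell adhesion molecule, was at 11.34, 11.44 and 11.57 at 1000 pM, against 11.14, 11.41 and 11.47 in vehicle, and its change of 0.08 ± 0.06 did not pass (limma adjusted p = 0.518).

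Over the concentration range, no junction gene was called at 0.1, 0.3, 1 or 3 pM by limma. Of all genes 0%, 0%, 0% and 0.153% were called at these 4 concentrations. At an unadjusted p under 0.05 there were 3, 3, 5 and 2 of the 33 junction genes, against 4.22%, 2.6%, 7.98% and 3.22% of all genes. At 10 pM CGNL1 was the 1 call (log2 change −0.61 ± 0.15 SE, limma adjusted p = 0.0314), with 0.858% of all genes called (0.352% lower). Without the 4 arrays CGNL1 and CLDN1 were called there, with 1.39% of all genes. Its call at 10 pM was lost without vehicle replicate 1 or 10 pM replicate 3. CLDN1 at 10 pM had −0.19 ± 0.08 with all arrays (limma adjusted p = 0.340) and −0.31 ± 0.05 without the 4 arrays (limma adjusted p = 8.76e-06). The low vehicle replicate 5 entered the first value and not the second.

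At 100 pM the same number was called as at 1000 pM, 7 lower and 1 higher, with 10.1% of all genes called (6.27% lower, 3.85% higher). Without the 4 arrays it was likewise 7 lower and 1 higher, with 11% of all genes called. CGNL1 was at 3.52, 4.11 and 4.40 at 100 pM (change −1.13 ± 0.15 SE) and CLDN1 at 8.90, 8.99 and 9.16 (−0.70 ± 0.08). JUP had a narrow range at 100 pM, 6.72 to 6.85, and a change of −0.75 ± 0.13. CDH3 changed by −0.59 ± 0.13, PPL by −0.50 ± 0.12, ESRP2 by −0.44 ± 0.08, CGN by −0.25 ± 0.07 and PKP4 by 0.21 ± 0.05, the highest limma adjusted p of the 8 being 0.0165 for CGN. The arrays of CGNL1, CGN, JUP and ESRP2 at 100 pM all lay below those of vehicle and the arrays of PKP4 above, 5 of 33 genes, against 4.35% of all genes (2.37% lower, 1.99% higher). At 1000 pM 4 of 33 did not overlap (CGNL1, CLDN1, JUP and PKP4), against the 3.21% of all genes given above. The comparisons at 100 and 1000 pM share the vehicle arrays.

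**Figure D3:**
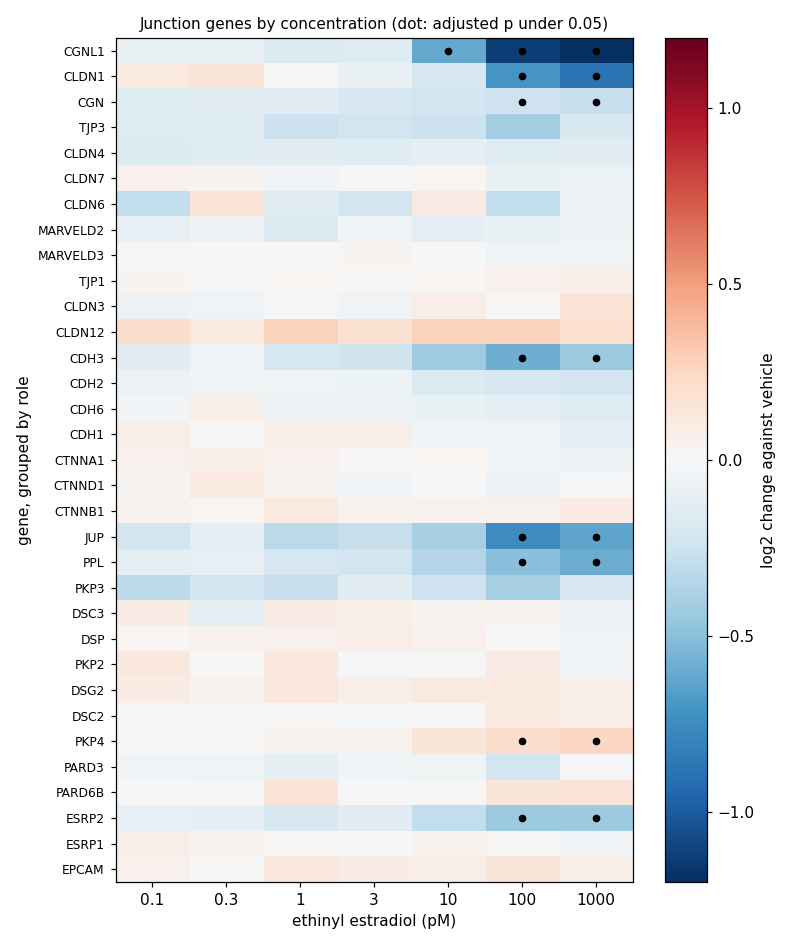
Log2 change against vehicle (colour, blue lower and red higher) of the 33 tested junction genes in rows, grouped by role, at the 7 EE concentrations in columns. Dots mark an adjusted p under 0.05: 1 at 10 pM and 8 each at 100 and 1000 pM. The palest rows, such as MARVELD3 and TJP1, stay near 0 at every concentration.

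A comparison that leaves out the vehicle arrays set 100 and 1000 pM against 0.1 and 0.3 pM. There 9 junction genes fell and 1 rose, while 13% of all genes were called (7.91% lower, 5.05% higher), so the 10 of 33 genes, or 30.3%, stand beside a larger background than at 1000 pM. CGNL1 changed by −1.09 ± 0.11, CLDN1 by −0.93 ± 0.06, JUP by −0.53 ± 0.09, PPL by −0.44 ± 0.08, CDH3 by −0.42 ± 0.09 and ESRP2 by −0.33 ± 0.06 (SE), and PKP4 by 0.22 ± 0.03. The largest limma adjusted p of these 7 was 3.59e-04. CGN, at −0.12 ± 0.05, did not pass (limma adjusted p = 0.103). Its means were 6.50 at 0.1 pM and 6.51 at 0.3 pM, under the vehicle mean of 6.65.

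This comparison added 3 adherens junction genes with small falls. CDH1 changed by −0.13 ± 0.03 (SE, limma adjusted p = 0.00653), CTNNA1 by −0.11 ± 0.02 (adjusted p = 9.79e-04) and CTNND1 by −0.12 ± 0.04 (adjusted p = 0.0263). The CDH1 mean was 10.30 in vehicle, and at 0.1, 0.3, 1, 3, 10, 100 and 1000 pM the means were 10.38, 10.31, 10.38, 10.37, 10.26, 10.25 and 10.19. For CTNNA1 a second probe set gave −0.12 (limma adjusted p = 0.00878), another bright one −0.09 (0.313) and a dimmer one 0.07 (0.930). The other CDH1 probe set gave −0.15 and did not pass (limma adjusted p = 0.730). Further CTNND1 probe sets above the floor gave −0.07 (0.746) and −0.02 (0.954). All 3 genes passed without the 4 arrays, where 11 junction genes and 21.2% of all genes were called, but with the mean of probe sets none of the 3 did (limma adjusted p = 0.445 for CDH1, 0.661 for CTNNA1 and 0.552 for CTNND1). CTNND1 also lost its call without the filter on dim probe sets and when 0.1 pM replicate 2 or 3, or 100 pM replicate 3 or 5, was left out (limma adjusted p = 0.0505 to 0.0611). An F test over all 8 groups called 8 junction genes, CGNL1, CLDN1, CDH1, CDH3, JUP, PPL, PKP4 and ESRP2, with 6.99% of all genes called.

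**Figure D4:**
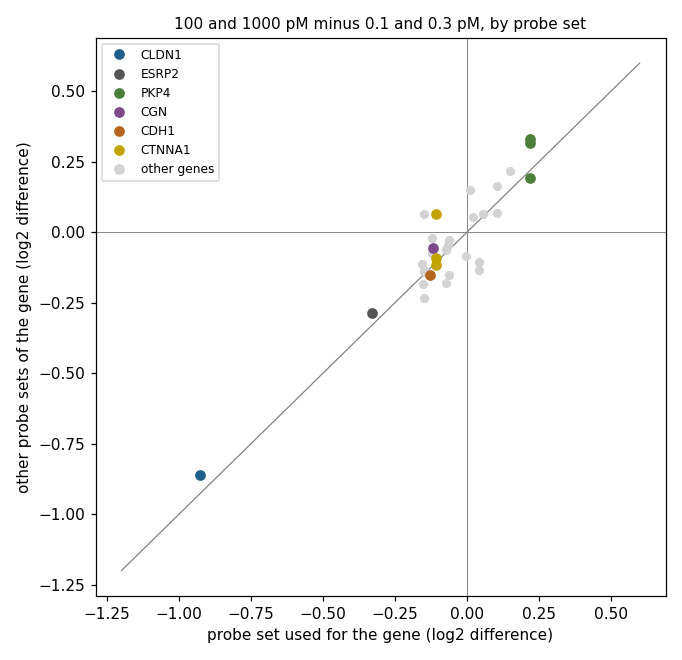
Difference in log2 level between 100 and 1000 pM and 0.1 and 0.3 pM, for the probe set used for each gene (horizontal) and for each of the gene's other probe sets above the floor (vertical); the line marks equal differences. CLDN1 and ESRP2 lie near the line, all 3 points of PKP4 lie above 0, and 1 CTNNA1 point lies above 0 while the probe set used lies below.

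Of the 33 junction genes, 20 had further probe sets above the floor, 33 in number. In the vehicle-free comparison 29 of these 33 had the sign of the probe set used. Agreement was lower at 1000 pM against vehicle. There some further probe sets of CGN, CDH1, CDH2, CDH6, CTNNA1, CTNNB1, CTNND1, DSC3 and ESRP1 had the opposite sign. Probe sets of 1 gene read the same RNA extracts and are not replicates. CGNL1, JUP, PPL and CDH3 had no further probe set above the floor.

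The midpoint of the log2 change was estimated for 7 genes with a curve of slope 1, as a description. It was 2.88 pM for CDH3 (95% interval 0.575 to 13.2), 6.61 pM for PPL (1.26 to 40.7), 7.41 pM for JUP (1.26 to 34.7) and 7.94 pM for ESRP2 (2.14 to 29.5). PKP4 had 8.32 pM (3.24 to 24.0), CGNL1 12.6 pM (6.31 to 28.2) and CLDN1 24.0 pM (13.2 to 46.8). Neighbours in this order had overlapping intervals, and differences between midpoints were not tested. CGNL1 exceeded the floor on only 4 of 6 arrays at 100 pM and 2 of 6 at 1000 pM, so its midpoint is uncertain. No concentration lay between 10 and 100 pM, where the midpoints of CGNL1 and CLDN1 fell. Without the 4 arrays the midpoints of PPL and JUP were over 1.5 times higher, at 11.5 pM (2.69 to 79.4) and 12.3 pM (4.57 to 33.1), and the order in the middle changed: CDH3 (3.89 pM), PKP4 (7.76 pM), ESRP2 (9.77 pM), PPL, JUP, CGNL1 (13.5 pM) and CLDN1. CLDN1 had the highest midpoint with all arrays and without the 4 (18.6 pM, 13.5 to 25.7), and its mean was 9.70 in vehicle and 9.82, 9.85, 9.72, 9.63, 9.51, 9.00 and 8.82 at the 7 concentrations from 0.1 to 1000 pM.

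**Figure D5:**
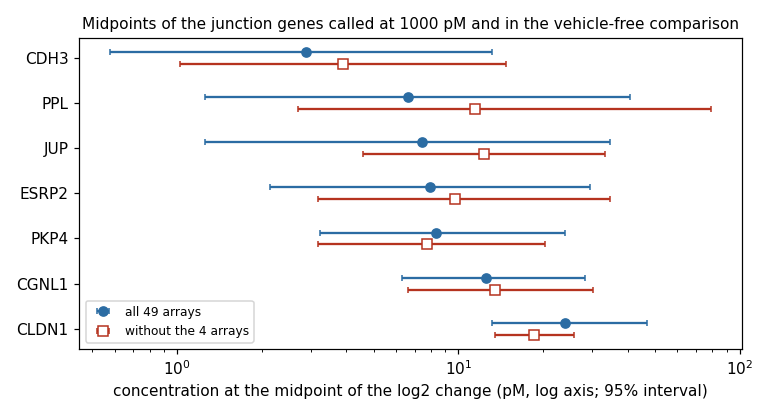
Midpoints of the log2 change on a concentration axis (pM, log scale) with 95% intervals for the 7 junction genes called both at 1000 pM and in the vehicle-free comparison, with all 49 arrays (filled circles) and without the 4 arrays apart (open squares). CDH3 lies lowest at 2.88 pM and CLDN1 highest at 24.0 pM, and neighbouring intervals overlap.

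Related genes outside the 38 were read from lists of junction, polarity and lineage genes. Beside their counts, 7.21% of all genes were called at 1000 pM and 8.81% without the 4 arrays. In the vehicle-free comparison it was 13%. Of 8 other tight junction genes tested at 1000 pM 0 rose and 0 fell by limma (median change −0.04). The claudin CLDN16 was at −0.69 ± 0.27 (SE, limma adjusted p = 0.129), and without the 4 arrays it fell (−0.81, adjusted p = 4.38e-04). In the vehicle-free comparison CLDN16 fell (−0.94, limma adjusted p = 1.76e-04) and CLDN11 rose (0.21, adjusted p = 0.00683). CLDN16 exceeded the floor on no 1000 pM array, so the size of its change is uncertain. Of 18 polarity genes 1 fell, PARD3B, a paralog of PARD3 (−0.42), and without the 4 arrays MPDZ, a scaffold with many PDZ domains, rose too (0.19, limma adjusted p = 0.0409). Among 10 other adherens junction genes 1 rose and 2 fell (median −0.16). The riser was CTNND2, delta-catenin, an armadillo protein close to PKP4 and CTNND1, at 5.09, 5.29 and 5.66 at 1000 pM, against 2.89, 3.60 and 4.24 in vehicle. Its groups did not overlap, and the change was 1.73 ± 0.14 (SE, limma adjusted p = 7.75e-14). Only 2 of 6 vehicle arrays exceeded the floor, so the 3.31-fold rise is uncertain in size. NECTIN2, an adhesion molecule of the adherens junction, fell (−0.32), as did VCL, vinculin (−0.25). PLEKHA7 (−0.36) and LIMA1 (−0.18) were called beside these without the 4 arrays, which made 4 falls. In the vehicle-free comparison 1 of the 10 rose and 5 fell, PLEKHA7 (−0.34), LIMA1 (−0.13) and CTNNBIP1 (−0.24) among them. Of 2 other desmosomal genes 0 were called with all arrays, while PERP fell without the 4 arrays (−0.13, limma adjusted p = 0.0462), and of 6 gap junction genes 1 rose, GJA1, connexin 43, by 0.20.

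Among 7 epithelial transcription factors EHF rose by 0.72 ± 0.11 (SE), and OVOL1 (−0.39) and OVOL2 (−0.33) fell, the last 2 not without the 4 arrays (limma adjusted p = 0.0883 and 0.0606). The share of all genes called was 7.21% at 1000 pM, and 8.81% without the 4 arrays. In the vehicle-free comparison EHF rose (0.62) and OVOL1 (−0.28), OVOL2 (−0.25) and ELF3 (−0.42) fell by limma, with 13% of all genes called. Of the transcription factors of epithelial-mesenchymal transition, SNAI1, SNAI2, ZEB1 and ZEB2 were not above the floor, while TWIST1 changed by −0.26 ± 0.07 (SE, limma adjusted p = 0.0136), averaging 8.29 ± 0.12 at 1000 pM and 8.55 ± 0.23 in vehicle (SD, n = 6 each).

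Markers of cell identity moved beside the junction genes in part. Their counts at 1000 pM stand beside 7.21% of all genes called. Of 9 epithelial identity genes tested 1 fell at 1000 pM, the keratin KRT7 (−0.60). KRT8 averaged 10.96 at 1000 pM and 10.89 in vehicle, and KRT18 averaged 11.63 at 1000 pM and 11.69 in vehicle. In the vehicle-free comparison 3 of the 9 fell by limma, KRT7 (−0.58), KRT19 (−0.25) and KRT18 (−0.12), with 13% of all genes called. At 1000 pM 3 of 5 mesenchymal markers fell, TAGLN (1.99-fold), ACTA2 (1.96-fold) and FN1 (1.35-fold), and VIM differed by −0.01. The summed log2 level of these 5 markers was 36.3 to 37.1 at 1000 pM and 38.8 to 39.6 in vehicle. Of 3 stromal markers COL1A2 rose (1.07) and COL1A1 (−0.66) and COL3A1 (−0.60) fell at 1000 pM. Their summed levels were 20.8 to 21.8 at 1000 pM and 20.8 to 21.9 in vehicle. DCN, LUM, PDGFRA and PDGFRB were not above the floor, nor was any of the 5 endothelial or 6 immune markers. Whether a shift in the make-up of the cultures plays a part in the junction gene changes was not tested.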

How the data were processed

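Each of the 49 RNA samples was hybridized to an Affymetrix array of its own, as the labels' protocols describe. The deposited log2 values were used as given, and the submitters' processing notes name GCRMA and Partek for them with no version. GCRMA presses low signals toward a floor, which makes the size of a change in a dim gene uncertain, and the number of arrays limits the precision. The annotation gave 1 gene symbol to 40920 of 54715 probe sets; 864 carried more than 1, and 12931 were unnamed.

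Probe sets with log2 values above 4 on at least 6 arrays entered, 1 per gene by the highest mean. All 8 groups were fitted together in limma (version 3.58.1, on R 4.3.3 with statmod 1.5.0), with an intensity trend and Benjamini-Hochberg adjustment over 11075 genes (threshold 0.05). Pairs of genes were compared with exact permutation tests. Midpoints came from curves of slope 1 with F intervals. Calculations were tested on simulated data. Promoters and figures used Python 3.11.15, pandas 2.3.3 and matplotlib 3.10.9. Named genes were the 33 tested members, plus the called genes of the lists and a few others chosen after their values were seen. The members, the lists and the limit that sets 4 arrays apart (4 median absolute deviations of the actin difference) were chosen with earlier results of these data known. Replicate numbers were judged to pair arrays only if all 6 correlations of deviations from the group means exceeded 0.1. This was met in no comparison with vehicle (at 1000 pM 3 of 6, from −0.51 to 0.57). No column of values was left unused (0 columns).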

Additional observations from a re-analysis of the deposited data

Results flagged for a closer look

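Among the 11 junction genes called in any comparison, 8 of 88 gene and group combinations held an array far from the others of its group, and chance gives about 1 in 20. Of the 8, 5 lie in arrays with a high actin 3′ minus 5′ difference. Vehicle replicate 5 had the lowest vehicle level of CLDN1 (9.12, next 9.77) and of CTNND1 (7.79, next 8.13) and the highest of JUP (8.31, next 7.56). The 0.3 pM replicate 2 had the highest levels of its group for CGNL1 (5.64, next 5.14) and PPL (6.45, next 5.92). The other 3 were in arrays not set apart: CTNNA1 in 0.3 pM replicate 3 (10.97, next 11.07), CTNND1 in 10 pM replicate 5 (7.99, next 8.11) and PKP4 in 3 pM replicate 1 (8.71, next 8.91), each the lowest of its group. Without vehicle replicate 5 the change at 1000 pM was −1.01 for CLDN1 and −0.48 for JUP, with both still called.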

How the results depend on the processing

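In 25 other settings at 1000 pM, CGNL1 (−1.30 to −1.11), CLDN1 (−1.01 to −0.83) and PKP4 (0.22 to 0.41) kept direction and call. JUP, PPL and ESRP2 lost the call only when those 2 groups were fitted by themselves (limma adjusted p 0.0581 to 0.0600), CGN there and with the mean of probe sets, and CDH3 in 6 settings. With the mean of probe sets CDH1 was at 0.016 and CTNNA1 at 0.0905 at 1000 pM, against −0.11 and −0.06; their cause was not tested beyond the further probe sets given above. The calls at 10 pM, 1 by default, were 2 with array weights, with the actin difference as covariate, with the replicate block or without the 4 arrays, 3 with the mean of probe sets, and 0 at a threshold of 0.01 or with the 2 groups alone, and 0 to 3 with 1 array left out (0 without vehicle replicate 1 or 10 pM replicate 3, 2 without vehicle replicate 6, 3 without vehicle replicate 4). The share of all genes called at 10 pM ran from 0.298% to 1.44% over these settings with no single array left out. At 100 pM the 8 calls became 4 with the 2 groups alone and 4 with a 1.5-fold minimum (7 to 9 with 1 array left out), and at 1000 pM they became 3 and 4 (7 to 8). Of all genes 2.62% and 1.76% were called in those settings at 100 pM and 2.78% and 1.99% at 1000 pM. The 10 calls of the vehicle-free comparison became 16 with array weights, 17 with the actin covariate and 2 with the 1.5-fold minimum (9 to 11 with 1 array left out). The share of all genes called in that comparison, 13%, moved likewise, to 26.8%, 24.8% and 1.71%. The F test gave 8 to 10. A stricter threshold lowers counts by construction. For the other settings, those with fewer arrays in the fit among them, the cause was not tested. The change of CGNL1 minus that of CGN, −0.93, kept its size under the replicate block but had an exact adjusted p of 0.0625, and ran from −1.02 to −0.85 with 1 array left out. That of CDH1 minus CDH2, 0.11, was −0.0319 without the 4 arrays and −0.10 without the 2 arrays past 5 median absolute deviations, with a range of −0.10 to 0.21 with 1 array left out. The replicate block changed no other call at 1000 pM. Quantile normalization and median centring moved the median of all genes by −0.0234 to 0.00779 in log2.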
